A study of Mus musculus with 21 samples.

Results

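The cecum of mice fed 0.5% broccoli powder, the lowest dose of the study, was compared with that of mice fed none. The comparison took the 5 libraries labelled 0.5% and the 6 labelled 0%, which are 11 of the 21 mRNA libraries of the study; 5 more came from 1.0% and 5 from 2.5% broccoli powder. All mice were C57BL/6. Both groups started at 3 weeks of age on the Total Western Diet, a rodent feed made to resemble human Western nutrient intake, and ate it for 6 weeks. For the last 3 weeks the first group had the same diet with 0.5% broccoli powder and the second had it with 0%, so the 0% mice carried the Western diet as well. RNA was taken from the cecum, a pouch at the start of the large bowel where plant material is fermented, and its wall holds epithelium, immune cells, nerves and muscle.

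Broccoli carries glucosinolates, which plant and bacterial myrosinases turn into isothiocyanates such as sulforaphane and into indoles. Isothiocyanates free the transcription factor NRF2 from its inhibitor KEAP1, and NRF2 then binds antioxidant response elements of glutathione and quinone reductase genes. Indole products are ligands of the aryl hydrocarbon receptor, which binds xenobiotic response elements and induces Cyp1a1 together with its own repressor Ahrr. In the gut these factors are known for their part in detoxification and in barrier immunity.

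Total counts were 35057688 to 50757142 per library at 0.5% and 28514263 to 42687431 at 0%. The large bowel genes Car1, a carbonic anhydrase of the colonic surface, and Slc26a3, its chloride and bicarbonate exchanger, stood at 3372 to 4947 and 781 to 945 CPM (read counts scaled to library size) at 0.5%, and at 2868 to 5789 and 536 to 969 CPM at 0%. In 3 of these 11 libraries the small intestine was also visible. The mean log2 CPM of 20 small intestinal enterocyte and Paneth cell genes was 3.36 and 3.96 in replicates 1 and 4 at 0.5%, against 1.75 to 2.20 in the other 3, and 5.25 in replicate 5 at 0%, against 1.51 to 1.995 in the other 5. The apolipoprotein gene Apoa1, an enterocyte product, had 23.3 and 45.5 CPM in those libraries at 0.5% and 316.5 CPM in that at 0%. Values with and without these 3 libraries are given for many of the genes and lists that moved when they were left out. At the other doses, replicate 1 at 1.0% (5.98) and replicates 1 and 2 at 2.5% (3.61 and 3.36) were also high in the marker mean. They stayed in the shared fit when the 3 were left out, and a further setting left out all 6. In all 21 libraries 5881 genes were listed at 0, among them 25 of the genes looked for here, such as the widely used Arf5 and G6pdx, so that those genes could not be described.

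The diets differed by the test in a single gene. Of 15652 genes tested with edgeR's quasi-likelihood test and Benjamini-Hochberg adjustment, 1 had an adjusted p under 0.05, which is 0.00639% of them, and it was lower at 0.5%. DESeq2 passed 2 genes and limma voom 0. No gene was called higher, a share of 0.0%. At an unadjusted p under 0.05 there were 1117 genes, or 7.14%, of which 510 were higher (3.26%) and 607 lower (3.88%). Scaled by library totals in place of TMM factors, which trim the genes that differ most, that split became 111 higher and 1485 lower, and the median log2 change of all genes was -0.091 in place of -0.003. In 79 genes (0.505%) the 5 libraries at 0.5% and the 6 at 0% did not overlap, with 36 higher (0.23%) and 43 lower (0.275%). With the 3 libraries that carried small intestine markers left out, 0 genes passed edgeR's test, 1036 had an unadjusted p under 0.05, and 657 did not overlap, between fewer libraries.

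The gene that passed was Arl4d. It encodes a small GTPase of the ARF family that binds to the plasma membrane in its GTP-bound form and recruits cytohesins, the exchange factors that load ARF6, a regulator of endocytosis and of the actin cytoskeleton under the membrane. The gene, ENSMUSG00000034936, spans bases 101665541 to 101667832 of chromosome 11 in GRCm38 and lies on the plus strand. Its promoter is shown because it belongs to the 1 gene called. These are the 250 bases before the start of the gene in RefSeq (GRCm38.p6, chr11:101665291-101665540, plus strand), 54.4% of them G or C. The capitals mark the 1 match to the core of the xenobiotic response element, GCGTG, read here from the opposite strand as CACGC.
Arl4d promoter: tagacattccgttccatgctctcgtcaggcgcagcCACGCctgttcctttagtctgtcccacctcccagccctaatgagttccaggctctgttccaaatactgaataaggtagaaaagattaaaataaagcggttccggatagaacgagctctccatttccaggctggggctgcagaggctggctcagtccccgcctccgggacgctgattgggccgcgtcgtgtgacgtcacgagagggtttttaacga
Searched on both strands, GCGTG was present in 9250 of 32851 RefSeq promoter windows of this length (28.2%). The antioxidant response element core TGACNNNGC was found in 0 places in this window and in 3338 of the 32851 windows (10.2%). The letters do not show whether a factor binds there.

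At 0.5% Arl4d had 6.54, 8.23, 10.5, 10.1 and 9.51 CPM, against a lowest value of 12.4, a median of 14.3 and a highest of 17.4 CPM at 0%. All 5 libraries at 0.5% lay below all 6 at 0%, and replicate 1, one of those high in small intestine markers, was the lowest. The means were 8.98 ± 1.61 CPM at 0.5% and 14.9 ± 2.04 CPM at 0% (SD, n = 5 and 6). Arl4d fell by 0.72 ± 0.12 (SE) on the log2 scale with an adjusted p of 0.0386 in edgeR's quasi-likelihood test. At the other doses it averaged 13.8 ± 1.77 CPM at 1.0% and 10.1 ± 0.695 CPM at 2.5% (SD, n = 5 each). Tested directly, 0.5% differed from 1.0% by -0.62 ± 0.12 (unadjusted p = 3.8e-05, edgeR adjusted p = 0.587) and from 2.5% by -0.16 ± 0.12 (adjusted p = 0.9999). Its levels did not follow the order of the doses.

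**Figure D1:**
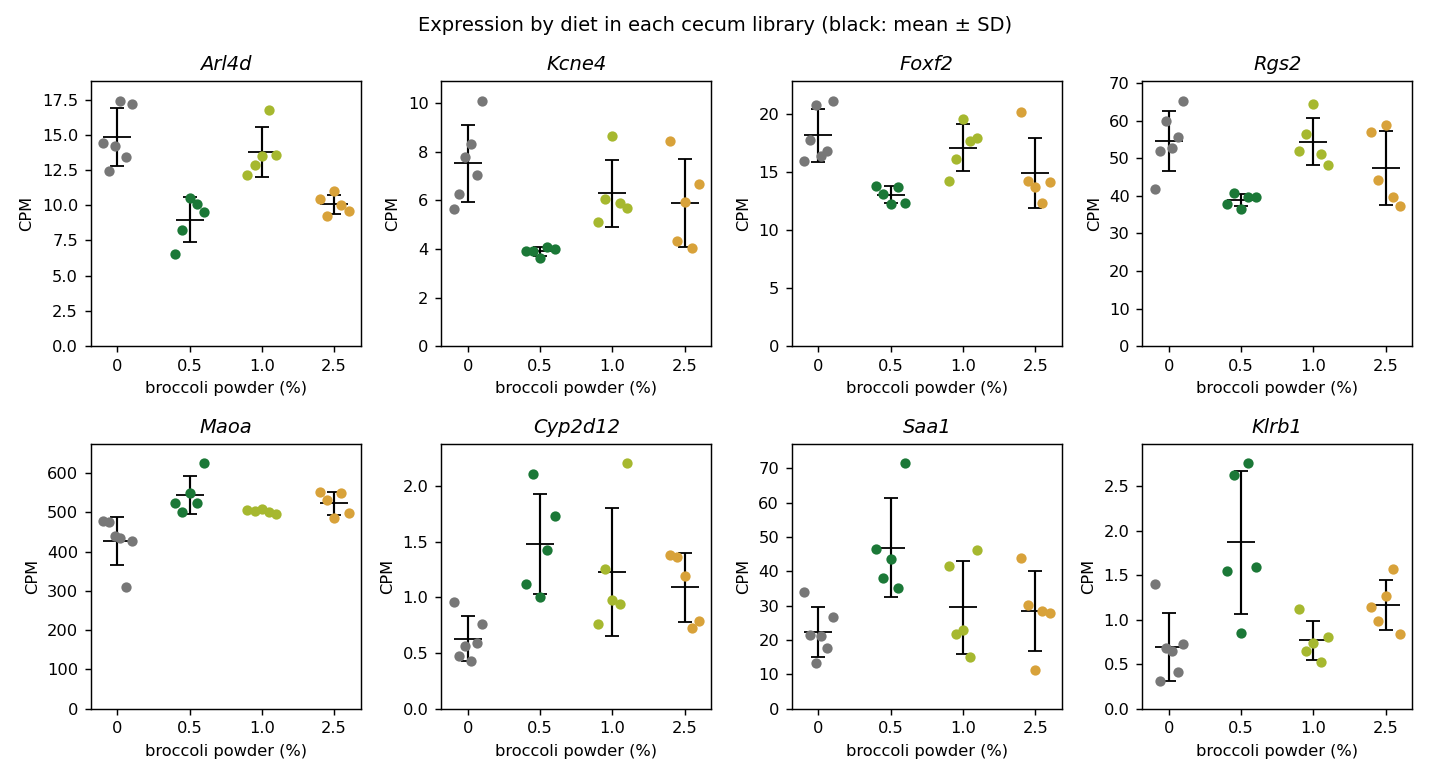
CPM of 8 genes (vertical axes, each from 0) in every library at 0, 0.5, 1.0 and 2.5% broccoli powder, with the mean and SD in black. Arl4d at 0.5% sits between 6.54 and 10.5 CPM, under every library at 0% and beside the libraries at 2.5%, and Kcne4 at 0.5% is packed between 3.61 and 4.08 CPM.

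The call of Arl4d was narrow. It was lost without the 3 libraries of high small intestine signal, with a log2 change of -0.68 ± 0.13 and an adjusted p of 0.275, and with the level of mesenchyme markers as a covariate, at -0.72 ± 0.13 and 0.115. Among 36 alternatives Arl4d passed in 13, with log2 changes between -0.82 and -0.63 and adjusted p-values between 3.15e-05 and 0.666. With 1 of the 21 libraries left out, it passed in 6 of the 21 fits: without replicate 2 or 5 at 0%, replicate 3 at 0.5%, replicate 1 or 4 at 1.0%, or replicate 1 at 2.5%. Without any other single library the adjusted p was between 0.0512 and 0.2501.

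**Figure D2:**
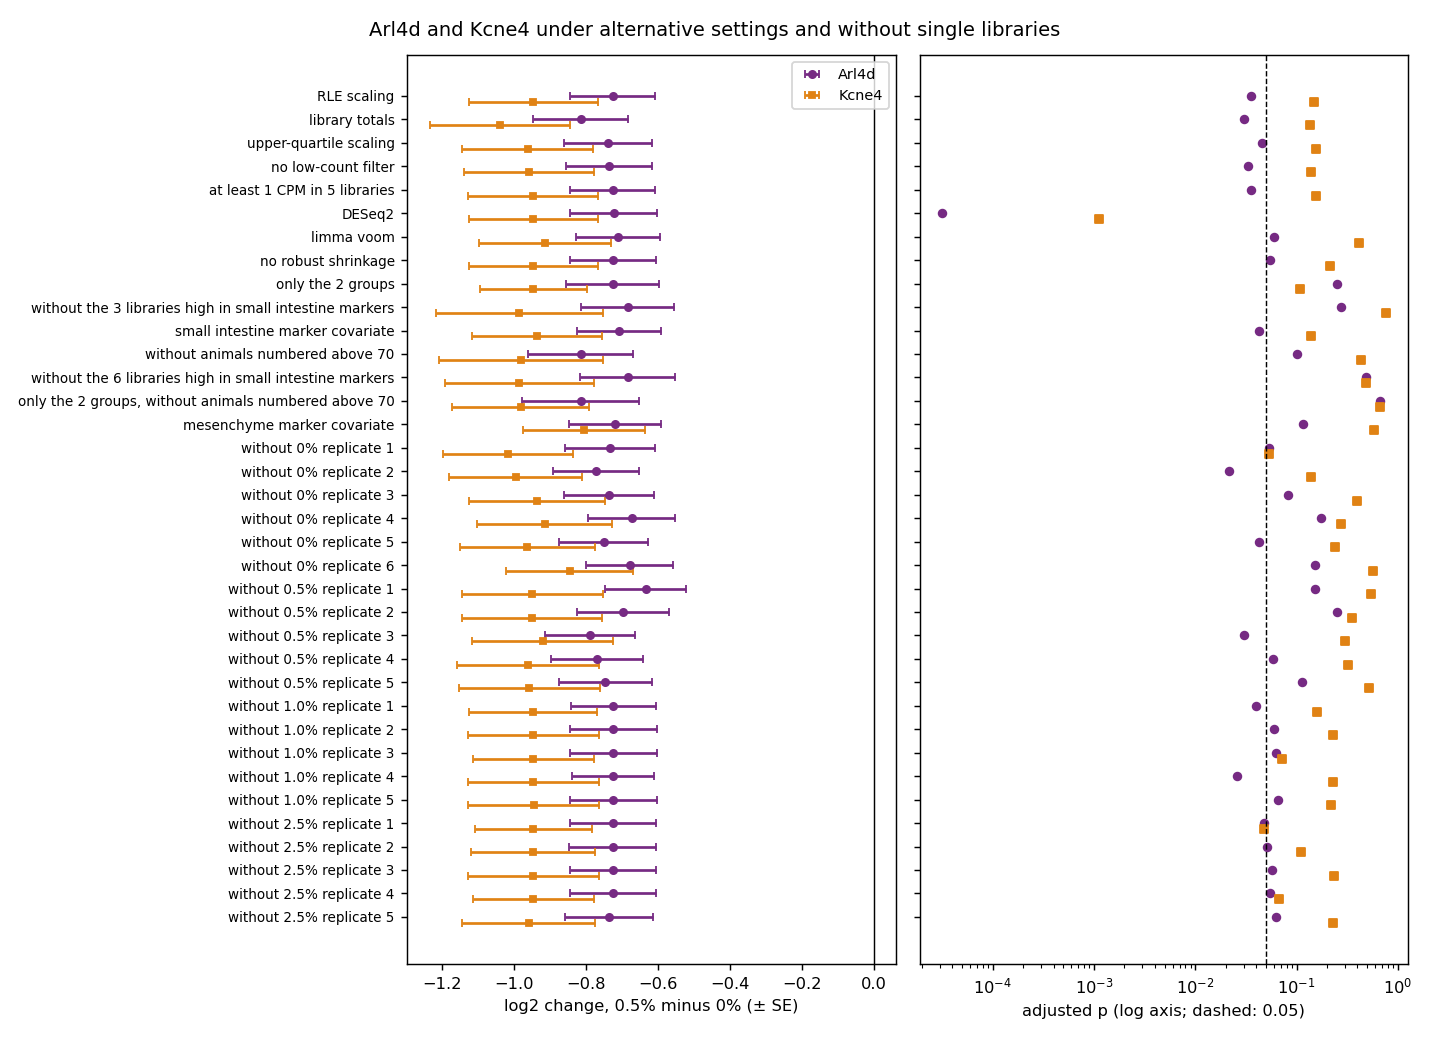
The log2 change between 0.5% and 0% with its SE (left) and the adjusted p on a log axis (right) for Arl4d and Kcne4, with 1 line for each alternative setting or omitted library. The change of Arl4d stays between -0.82 and -0.63, while its adjusted p lies on both sides of the dashed line at 0.05.

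The relatives of Arl4d were measured in the same libraries. Per kilobase of exon, Arl4a averaged 17.3 ± 2.57 CPM at 0.5% and 16.8 ± 1.52 at 0% (SD, n = 5 and 6), with a log2 change of 0.04 ± 0.13 (SE). Arl4c was the weakest of the 3 by this measure, at 0.849 ± 0.109 CPM per kilobase at 0.5% and 1.199 ± 0.163 at 0%, against 6.50 ± 1.17 and 10.8 ± 1.48 for Arl4d. The log2 change of Arl4c was -0.50 ± 0.13, with an unadjusted p of 0.000803 and an edgeR adjusted p of 0.589, and it did not pass. Of 30 tested members of the ARF family with its cytohesins, 1 was called, 14 had a positive change, and 1 had an unadjusted p under 0.05 in the higher direction and 4 in the lower, with a median log2 change of -0.03 beside -0.003 over all genes.

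Next to Arl4d stood Kcne4, which encodes a beta subunit that binds voltage-gated potassium channels and dampens their current (chromosome 1, 78816758 to 78820028, plus strand). At 0.5% it had 3.91, 3.92, 3.61, 4.08 and 4.01 CPM, against a lowest value of 5.66, a median of 7.42 and a highest of 10.1 CPM at 0%. The groups did not overlap, and the 5 libraries at 0.5% lay within a span far narrower than that at 0%. Its log2 change was -0.95 ± 0.18, which did not pass edgeR's test (adjusted p = 0.151). It did pass in 2 of 36 alternatives, with DESeq2 (adjusted p = 0.00113) and without replicate 1 at 2.5% (adjusted p = 0.0473), and its adjusted p-values ranged up to 0.761, the value without the 3 libraries. Kcne4 averaged 6.29 ± 1.37 CPM at 1.0% and 5.89 ± 1.80 CPM at 2.5%. Of 13 tested potassium channel beta subunits and partners, 3 had a positive change, and the median was -0.22. An unadjusted p under 0.05 was reached by 3 in the lower direction, among them Kcne4 and Kcnmb2 (-1.12 ± 0.36, at 0.239 ± 0.103 CPM at 0.5% and 0.514 ± 0.164 CPM at 0%), and by Kcne3, an epithelial beta subunit, in the higher (0.20 ± 0.09).

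**Figure D3:**
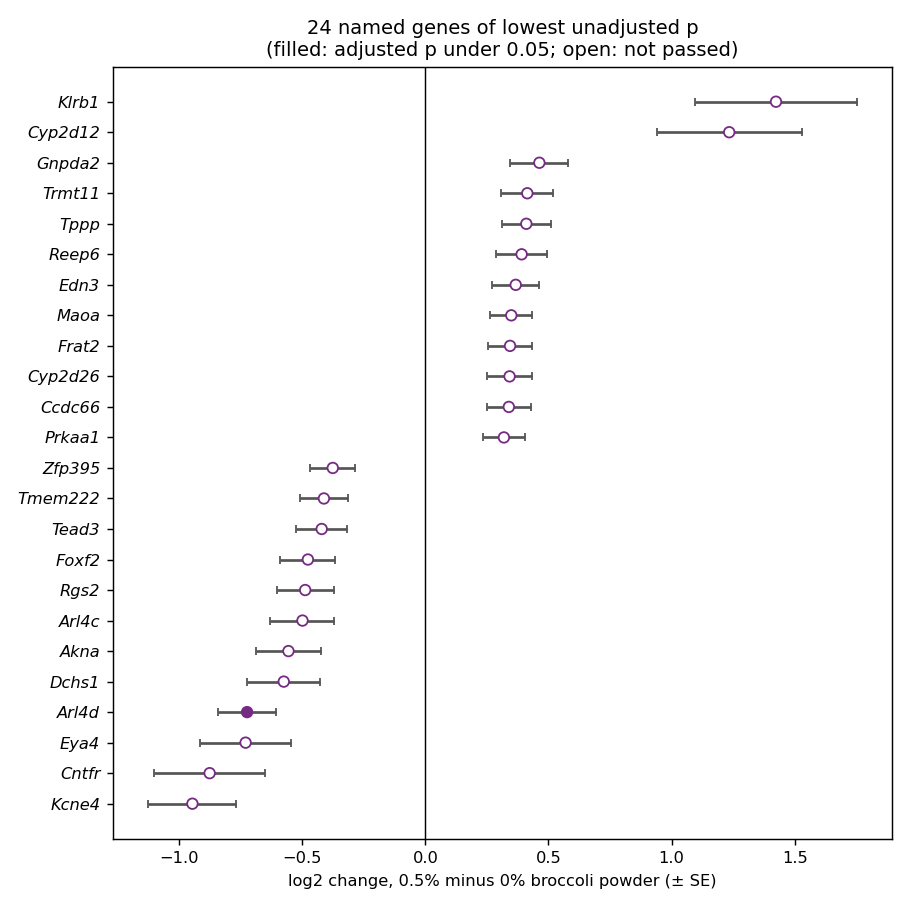
Log2 change between 0.5% and 0% with its SE for the 12 named genes of lowest unadjusted p in each direction. Arl4d is the filled point, the only one of the 24 with an adjusted p under 0.05; the open points, from Klrb1 at 1.42 to Kcne4 at -0.95, did not pass.

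Of the 12 genes of lowest unadjusted p on the lower side, 8 had libraries that did not overlap, and 11 did not pass. Over all genes tested, 0.275% were lower without overlap. The 12 were picked by p from the same libraries, which favours groups that do not overlap. Foxf2, a forkhead transcription factor of the gut mesenchyme on chromosome 13 (31625816 to 31631403), had 13.8, 13.1, 12.2, 13.7 and 12.4 CPM at 0.5%, against a lowest value of 15.9, a median of 17.3 and a highest of 21.1 CPM at 0%. Its log2 change was -0.48 ± 0.11 (edgeR adjusted p = 0.554), and its groups did not overlap. Rgs2, which speeds the shut-off of Gq proteins and so limits smooth muscle contraction (chromosome 1, 143999338 to 144004161), had 37.8, 40.7, 36.6, 39.6 and 39.6 CPM at 0.5%, against a lowest value of 41.7, a median of 54.1 and a highest of 65.3 CPM at 0%. All of its libraries at 0.5% were below those at 0%, with a log2 change of -0.49 ± 0.12 (adjusted p = 0.554).

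The remaining lower genes that did not overlap were Akna, a centrosomal AT-hook protein (-0.56 ± 0.13), the membrane protein gene Tmem222 (-0.41 ± 0.10), the zinc finger gene Zfp395 (-0.38 ± 0.09) and Eya4, a phosphatase and transcriptional coactivator (-0.73 ± 0.18). Akna, Foxf2 and Dchs1 each overlap a gene on the opposite strand, and whether reads were counted by strand is not known from the sources used here. Tead3, a DNA-binding partner of the Hippo pathway (-0.42 ± 0.10), Dchs1, a large cadherin of planar cell polarity (-0.58 ± 0.15), Cntfr, the receptor subunit for ciliary neurotrophic factor (-0.88 ± 0.23), and Arl4c overlapped between the diets. In Dchs1 the overlap came from replicate 4 at 0.5%, at 7.67 CPM against 4.41 to 5.21 CPM in its 4 companions.

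Regulators of G protein signalling, the family of Rgs2, had 18 tested members, of which 5 had a positive change, 4 had an unadjusted p under 0.05 and all of these were lower, and 0 were called. Their median was -0.12. Rgs9, known from the retina and striatum, had 13.3, 13.7, 11.97, 13.2 and 9.59 CPM at 0.5%, against a lowest value of 13.8, a median of 16.04 and a highest of 18.9 CPM at 0%. Those groups did not overlap by a margin smaller than the spread within either, and the log2 change was -0.39 ± 0.14 (adjusted p = 0.676). The others of the 4 were Rgs1 (-0.33 ± 0.16) and Rgs12 (-0.30 ± 0.14).

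Mesenchyme, enteric neuron, smooth muscle and macrophage markers were mostly negative, with 0 called. So were T cell, adipose, enterocyte and Paneth markers, given further on. Goblet, hormone, tuft, B and plasma cell and endothelial markers, also given further on, were not. Of 25 mesenchyme and fibroblast markers 5 had a positive change, 5 had an unadjusted p under 0.05, all lower, and the median log2 change was -0.19. Beside Foxf2 these were its relative Foxf1 (29.5 ± 2.53 CPM at 0.5% and 38.2 ± 4.99 CPM at 0%, -0.38 ± 0.13), the growth factor gene Bmp4 (-0.22 ± 0.10), the hedgehog target Gli1 (-0.36 ± 0.15) and the homeobox gene Nkx2-3 (-0.31 ± 0.12). The summed level of the 25 markers ran from 747 to 924 CPM at 0.5%, with a median of 859, and from 767 to 1079 CPM at 0%, with a median of 916, and 0 of the 25 were listed at 0. In bulk tissue, fewer cells of a type and less RNA per cell cannot be told apart. Relative to all genes, the list's median was -0.19 with all libraries and -0.10 without the 3 of high small intestine signal. Scaling by library totals turned the sign of 12 of the 39 list medians described here, and relative to all genes only that of endothelium and blood.

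Enteric neurons and glia, which drive the reflexes of the gut wall, had 16 tested markers, 15 of them with a negative change, and a median of -0.30. Only Prph, an intermediate filament of peripheral neurons, had an unadjusted p under 0.05 (3.37 ± 0.784 CPM at 0.5% and 5.46 ± 1.67 CPM at 0%, -0.69 ± 0.24, adjusted p = 0.676). Nos1, the nitric oxide synthase of inhibitory motor neurons, had 22.8 ± 2.70 CPM at 0.5% and 32.5 ± 9.87 CPM at 0% (-0.51 ± 0.25). The summed markers ran from 126 to 147 CPM at 0.5%, with a median of 140, and from 133 to 239 CPM at 0%, with a median of 162; replicates 3 and 6 at 0% were the highest, and the lower ends of both groups met. Relative to all genes, the median was -0.30 with all libraries, -0.39 without the 3 and -0.13 with the mesenchyme covariate. Scaled by library totals, 6 of the 16 had an unadjusted p under 0.05, all lower. That scaling moved all genes down, with 1485 of 15652 lower at that p in place of 607. Relative to all genes the list's median stayed at -0.30.

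Smooth muscle and interstitial pacemaker markers summed to 3297 to 4491 CPM at 0.5% and 2934 to 5429 CPM at 0%, so that the range at 0.5% lay within that at 0%. The median sum was higher at 0.5%, at 4215 CPM against 3917 CPM at 0%. Of 13 tested, 4 had a positive change, with a median of -0.12. The lowest unadjusted p-values belonged to Ano1, the chloride channel of pacemaker cells (-0.29 ± 0.13), and Myocd, the coactivator of muscle genes (-0.30 ± 0.15). Macrophage and dendritic cell markers summed to 287 to 354 CPM at 0.5% and 287 to 363 CPM at 0%, with medians of 318 and 322. There 3 of 17 had a positive change and the median was -0.26, with the growth factor receptor Csf1r at -0.35 ± 0.16 and the chemokine receptor Cx3cr1 at -0.32 ± 0.16. Leaving out the 3 libraries of high small intestine signal gave medians of -0.20 for muscle (2 of 13 positive) and -0.10 for macrophages (6 of 17 positive), and -0.14 for Csf1r. With the mesenchyme covariate the muscle median turned to 0.05, with 9 of 13 positive. In a fit with the mesenchyme level as a covariate, the log2 changes were -0.81 for Kcne4, -0.38 for Foxf2 and -0.43 for Rgs2. Foxf2 is itself one of the markers averaged in that covariate, so part of its shift is built in.

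**Figure D4:**
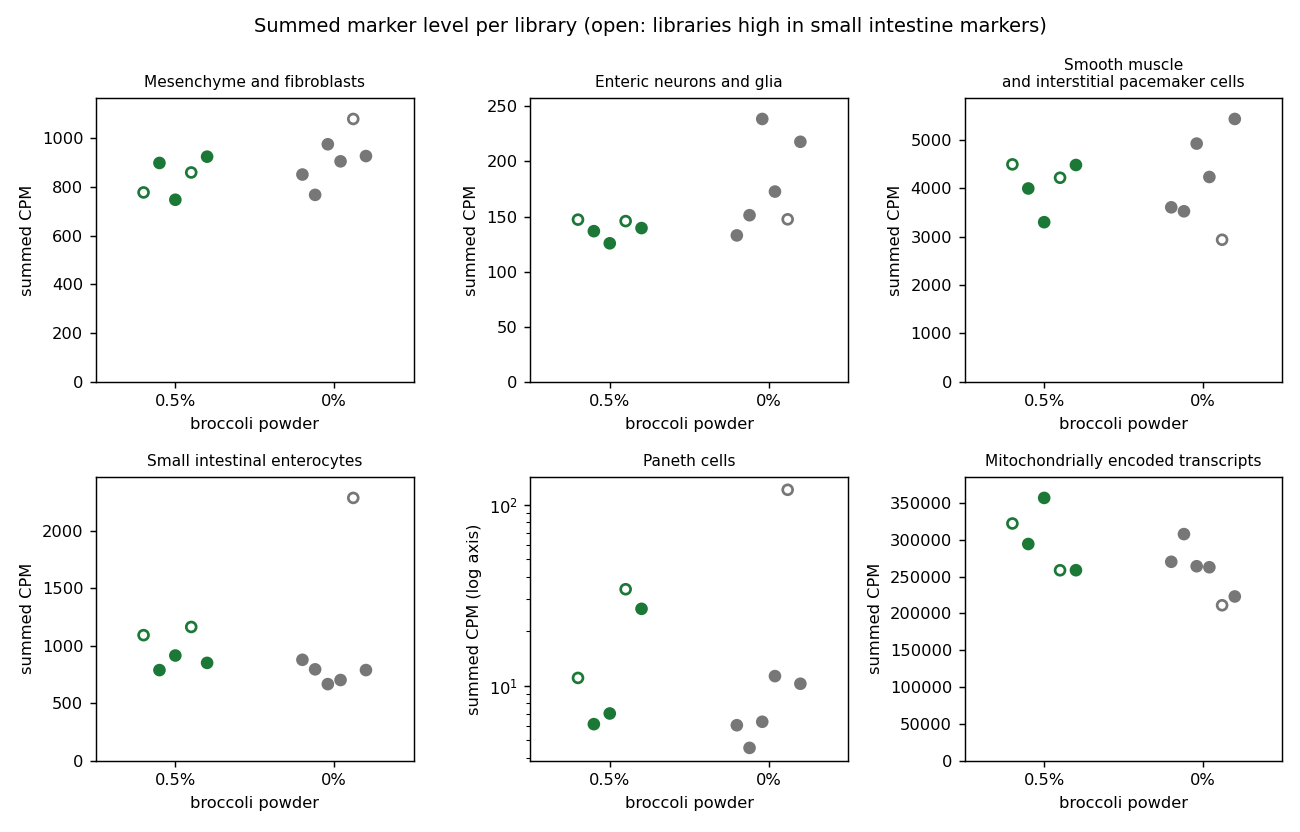
Summed CPM of 6 marker lists (vertical axes, that of Paneth cells on a log scale) in each library at 0.5% and 0%, with open points for the 3 libraries high in small intestine markers. The diets overlap in every panel; neuron and glia markers reach 147 CPM at 0.5% and 239 CPM at 0%, and small intestinal and Paneth markers peak in replicate 5 at 0%.

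On the higher side 0 genes were called. Of the 12 of lowest unadjusted p, again picked from these libraries, 3 did not overlap between diets, beside 0.23% of all genes. Maoa, the mitochondrial monoamine oxidase that breaks down serotonin and noradrenaline (chromosome X, 16619698 to 16687818), had 523.6, 501.5, 550.2, 523.5 and 624.6 CPM at 0.5%, against a lowest value of 310.2, a median of 436.8 and a highest of 476.8 CPM at 0%. Every library at 0.5% was above every one at 0%, where replicate 5, high in small intestine markers, was the lowest. The log2 change was 0.35 ± 0.09 (edgeR adjusted p = 0.557), and 0.31 without the 3 libraries. Maoa was at 502.8 ± 5.65 CPM at 1.0% and 523.0 ± 29.7 CPM at 2.5%.

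Cyp2d12, a cytochrome P450, had 1.12, 2.11, 1.01, 1.43 and 1.73 CPM at 0.5%, against a lowest value of 0.428, a median of 0.578 and a highest of 0.961 CPM at 0%. The groups did not overlap, though at a low level, and the log2 change was 1.23 ± 0.30 (adjusted p = 0.554). The Cyp2d genes are close paralogs, and another annotated gene overlaps Cyp2d12 on its own strand, so the split of reads among them is uncertain. Frat2, a binding protein of the kinase GSK3 in Wnt signalling, had 40.2, 35.6, 40.4, 38.5 and 34.8 CPM at 0.5%, against a lowest value of 24.7, a median of 29.98 and a highest of 34.1 CPM at 0%. Its groups were next to each other without overlap (0.34 ± 0.09, adjusted p = 0.589).

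The largest change of the 12 was that of Klrb1, a lectin-like receptor of natural killer cells from a family of close paralogs. It had 1.55, 2.62, 0.846, 2.76 and 1.59 CPM at 0.5%, against a lowest value of 0.307, a median of 0.669 and a highest of 1.40 CPM at 0%. Of the 5 libraries 4 lay above all at 0%, with a log2 change of 1.42 ± 0.33 (adjusted p = 0.554). Edn3, the endothelin that guides enteric neural precursors, had 35.4 ± 4.80 CPM at 0.5% and 27.4 ± 2.88 CPM at 0% (0.37 ± 0.10, and 0.24 without the 3 libraries). Prkaa1, the catalytic subunit of the energy sensor AMPK, had 226.6 ± 16.8 CPM at 0.5% and 181.7 ± 23.7 CPM at 0% (0.32 ± 0.08). The rest were Tppp, a tubulin polymerisation factor (0.41 ± 0.10), the tRNA methyltransferase subunit Trmt11 (0.41 ± 0.11), the hexosamine enzyme Gnpda2 (0.46 ± 0.12), Cyp2d26 (0.34 ± 0.09), the ciliary protein gene Ccdc66 (0.34 ± 0.09) and Reep6, a shaping protein of the endoplasmic reticulum (0.39 ± 0.11). Gnpda2 and Ccdc66 each overlap a gene on the opposite strand.

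The pathways addressed by broccoli metabolites gave no call at this dose. In the aryl hydrocarbon receptor pathway 6 of 7 tested genes had a positive change, beside 49.2% of all genes, with a median log2 change of 0.06. Ahrr, the receptor's repressor and a direct target, had 4.28, 3.26, 3.25, 3.43 and 2.34 CPM at 0.5%, against a lowest value of 1.19, a median of 2.26 and a highest of 2.69 CPM at 0%. Of its 5 libraries 4 were above all at 0%, and the log2 change was 0.59 ± 0.20 (unadjusted p = 0.00676, adjusted p = 0.676), or 0.43 without the 3 libraries. Cyp1a1, the classical target, had 1.43, 0.735, 1.23, 0.626 and 0.874 CPM at 0.5%, against a lowest value of 0.175, a median of 0.392 and a highest of 1.98 CPM at 0%. A single library at 0%, replicate 2, was above all at 0.5%, and the rest at 0% had 0.175 to 0.478 CPM. The change was 0.66 ± 0.63 (edgeR adjusted p = 0.825), or 0.41 without the 3 libraries. With 1 library of the study left out it lay between 0.45 and 1.47. Cyp1b1 (0.03 ± 0.62) and Tiparp, a feedback ADP-ribosylase (0.06 ± 0.12), were near 0, and the sign of both turned under scaling by library totals.

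Of 26 tested NRF2 targets 17 had a positive change, with a median of 0.06, 2 had an unadjusted p under 0.05 in the higher direction and 1 in the lower. The 2 were Abcc1, an exporter of glutathione conjugates (47.4 ± 2.65 CPM at 0.5% and 41.2 ± 3.35 CPM at 0%, 0.20 ± 0.08), and Gclc, the rate-limiting subunit of glutathione synthesis (280.2 ± 34.6 CPM at 0.5% and 243.6 ± 31.1 CPM at 0%, 0.20 ± 0.09). The lower 1 was Slc7a11, the cystine importer that feeds glutathione synthesis, whose change of -1.24 ± 0.59 (unadjusted p = 0.0485, adjusted p = 0.685) was the largest of the list in size. Nqo1, a quinone reductase that NRF2 and the aryl hydrocarbon receptor both induce, had 61.1 ± 5.13 CPM at 0.5% and 54.9 ± 8.11 CPM at 0% (0.15 ± 0.11, adjusted p = 0.752). Hmox1, the haem oxygenase (-0.05 ± 0.19), and Gsta1, a glutathione transferase (-0.12 ± 0.29), had changes smaller than their SE.

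Among 27 cytochromes P450 and flavin monooxygenases 15 had a positive change (median 0.03), with an unadjusted p under 0.05 in 5 on the higher side and 1 on the lower. Beside Cyp2d12 and Cyp2d26 the higher ones were Cyp2d9 (1.29 ± 0.38), whose libraries did not overlap, Cyp2d34 (0.75 ± 0.22) and Cyp2s1 (0.40 ± 0.11). The lower one was Cyp4b1 (-0.57 ± 0.25). Thus 4 of the 5 higher ones were Cyp2d paralogs, among which the split of reads is uncertain. The other Cyp2d genes of the list were Cyp2d10 (0.55 ± 0.28) and Cyp2d22, which was lower (-0.20 ± 0.11). Of 9 carboxylesterases, which split ester drugs and lipids, 6 had a positive change (median 0.03). Ces1g had 184.7, 214.1, 180.6, 201.8 and 212.3 CPM at 0.5%, against a lowest value of 89.5, a median of 167.7 and a highest of 178.6 CPM at 0%. Its groups did not overlap, and the lowest value was that of replicate 5 at 0%; the log2 change was 0.36 ± 0.14, and 0.25 without that library. Ces1f was at 0.37 ± 0.11.

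The conjugating enzymes, which attach glucuronate, sulfate or glutathione, had a positive change in 22 of 29 and a median of 0.14, the highest among the detoxification lists. An unadjusted p under 0.05 was reached by 3, all higher, including the glucuronosyltransferase Ugt2b34 (851.8 ± 86.9 CPM at 0.5% and 721.1 ± 89.2 CPM at 0%, 0.24 ± 0.09) and the sulfotransferases Sult1b1 (0.18 ± 0.08) and Sult1a1 (0.28 ± 0.13). The median relative to all genes was 0.04 in place of 0.14 without the 3 libraries, with 19 of the 29 positive. Of 18 monoamine and tryptophan enzymes 12 had a positive change (median 0.11), and Maoa alone had an unadjusted p under 0.05; Kyat1, a kynurenine aminotransferase, followed at 0.19 ± 0.10.

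**Figure D5:**
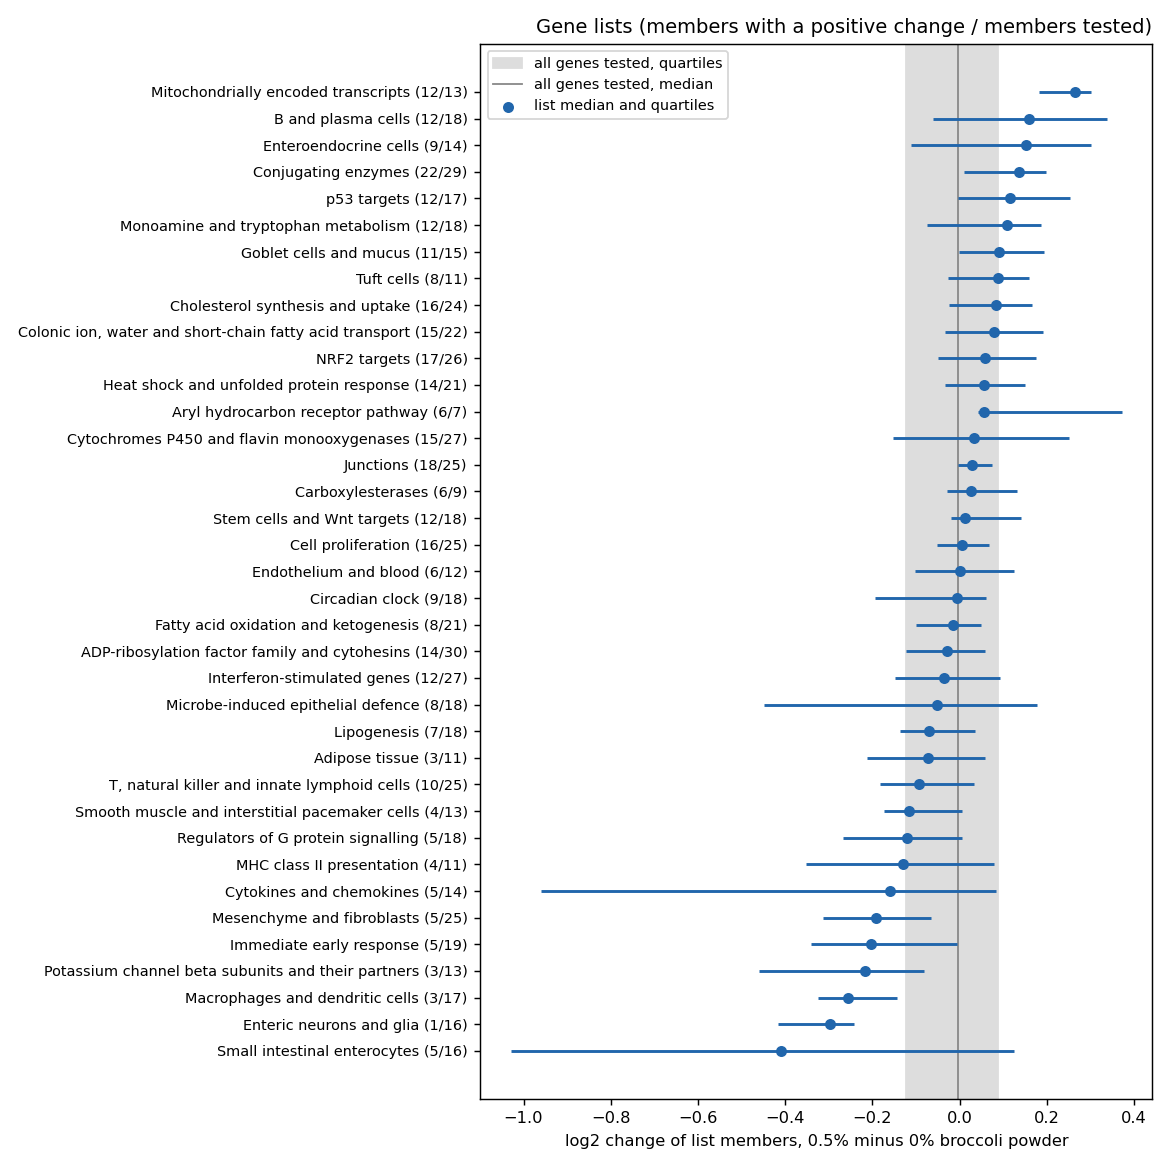
Median and quartiles of the log2 change between 0.5% and 0% for the lists with 5 or more tested members, ordered from high to low; the numbers in parentheses are members with a positive change over members tested, and the grey band holds the quartiles of all 15652 genes. Mitochondrially encoded transcripts stand at the top with a median of 0.27, and enteric neurons and glia (-0.30) and small intestinal enterocytes (-0.41) at the bottom.

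In the epithelium, Saa1, a serum amyloid that bacteria induce in the gut lining, had 46.4, 37.9, 43.5, 35.1 and 71.4 CPM at 0.5%, against a lowest value of 13.2, a median of 21.3 and a highest of 33.9 CPM at 0%. All libraries at 0.5% were above those at 0%, and the log2 change of 1.07 ± 0.33 (unadjusted p = 0.00503) did not pass (edgeR adjusted p = 0.676); it was 1.13 without the 3 libraries. Its relatives Saa2 (0.12 ± 0.62) and Saa3 (0.32 ± 0.20) were nearer 0. Of the 18 tested genes of microbe-induced defence, 8 had a positive change (median -0.05), and beside Saa1 the oxidase gene Nox1 had an unadjusted p under 0.05 (0.40 ± 0.14). Leaving out the 3 libraries gave 12 of 18 positive and a median relative to all genes of 0.19. The bactericidal lectins Reg3g (-1.54 ± 2.05) and Reg3b (-1.37 ± 2.10) rested on replicate 5 at 0%, and without it their changes were 3.34 and 3.84. That fit kept replicates 1 and 4 at 0.5%, also high in small intestine markers. Without all 3 libraries the changes were -0.32 and -0.52, and none of these values passed the test.

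Large bowel transport genes were positive in 15 of 22 (median 0.08), and 3 had an unadjusted p under 0.05, all higher. These were Cftr, the chloride channel (232.2 ± 30.1 CPM at 0.5% and 191.6 ± 23.1 CPM at 0%, 0.28 ± 0.10), Scnn1a, a subunit of the sodium channel (0.28 ± 0.12, and 0.08 without the 3 libraries), and Atp1b1, a subunit of the sodium pump (0.19 ± 0.09). Goblet cell and mucus genes were positive in 11 of 15 (median 0.09), with Clca1, a mucus-processing protease, at 0.37 ± 0.16 and B3gnt6, a mucin glycosyltransferase, at 0.23 ± 0.13, which was 0.007 without the 3 libraries. Muc2, the main mucin, had 1803 ± 604.9 CPM at 0.5% and 1436 ± 1172 CPM at 0% (0.33 ± 0.38), with 0.59 without the 3 libraries and 0.90 without replicate 5 at 0%. Junction genes were positive in 18 of 25 (median 0.03), with the desmosomal cadherin Dsg2 at 0.20 ± 0.09 and the tight junction scaffold Tjp1 at 0.15 ± 0.07.

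Small intestinal enterocyte markers were positive in 5 of 16 tested (median -0.41) and Paneth cell markers in 1 of 4 (median -1.37), with 0 at an unadjusted p under 0.05 in either list. Without the 3 libraries the medians relative to all genes were 0.15 and 0.52. The summed levels ran from 788 to 1162 CPM at 0.5% and from 666 to 2283 CPM at 0% for enterocytes, and from 6.12 to 34.1 CPM at 0.5% and from 4.53 to 121 CPM at 0% for Paneth cells. Lct, the lactase (0.44 ± 0.41), Alpi, an alkaline phosphatase (0.16 ± 0.15), Lyz1, the Paneth lysozyme (-1.52 ± 1.48), and Ang4, an antimicrobial ribonuclease (0.58 ± 0.63), had the lowest p-values of their lists.

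Hormone cells were positive in 9 of 14 markers (median 0.15), with the tachykinin gene Tac1, which enteric neurons also use, at -0.57 ± 0.22 and the ghrelin gene Ghrl at 0.55 ± 0.31 (0.36 without the 3 libraries). Tuft cells were positive in 8 of 11 (median 0.09), with the phospholipase Plcg2 at 0.22 ± 0.13 and the tuft cell factor Pou2f3 at 0.32 ± 0.20. Stem cell and Wnt target genes were positive in 12 of 18 (median 0.01), with Nkd1, a Wnt antagonist, at -0.31 ± 0.13 and the adhesion receptor Cd44 at 0.25 ± 0.11; without the 3 libraries 15 of 18 were positive, with a median of 0.15. Proliferation genes were positive in 16 of 25 (median 0.01), led by the replication helicase subunits Mcm5 (0.31 ± 0.15) and Mcm4 (0.09 ± 0.10).

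Genes of the p53 pathway, which answers DNA damage, were positive in 12 of 17 (median 0.12), and 4 had an unadjusted p under 0.05, all higher. Trp53 itself had 34.4 ± 3.12 CPM at 0.5% and 28.3 ± 2.48 CPM at 0% (0.28 ± 0.08, adjusted p = 0.616), and the death genes Bax (0.34 ± 0.15) and Bbc3 (0.38 ± 0.18) and the cyclin gene Ccng1 (0.18 ± 0.08) were the other 3. Heat shock and unfolded protein genes were positive in 14 of 21 (median 0.06), with the chaperone Dnajb9 at 0.32 ± 0.12 and the asparagine synthetase Asns at -0.33 ± 0.20. Leaving out the 3 libraries gave 17 of 21 positive and a median relative to all genes of 0.16.

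Immune lists gave no call. Cytokines and chemokines were positive in 5 of 14 (median -0.16, and -0.004 without the 3 libraries, with 6 of 14 positive). Il1b (1.01 ± 0.185 CPM at 0.5% and 2.51 ± 3.09 CPM at 0%, -1.32 ± 0.55) and the alarmin Il33 (-1.08 ± 0.52) had the lowest p-values, and both had their highest value by far in replicate 5 at 0%. Without that library alone, their values were -0.33 and -0.02. The class II antigen presentation genes were positive in 4 of 11 (median -0.13), with H2-Eb1 at -0.36 ± 0.16 and H2-DMb1 at -0.45 ± 0.21. Leaving out the 3 libraries put that median at -0.006 and H2-DMb1 at -0.22, with 0 of the 11 at an unadjusted p under 0.05. Leaving out animals numbered above 70 put the median at -0.001, or 0.004 relative to all genes. Interferon-stimulated genes were positive in 12 of 27 (median -0.04), with the guanylate-binding protein gene Gbp3 at -0.32 ± 0.17. T, natural killer and innate lymphoid cell markers were positive in 10 of 25 (median -0.09), with Klrb1 at the top and the lymphoid factor Gata3 at -0.48 ± 0.31, which was -0.10 without replicate 5 at 0% and 0.03 without the 3 libraries; the list median without the 3 was -0.01. B and plasma cell markers were positive in 12 of 18 (median 0.16), with the B cell factor Pax5 at 0.59 ± 0.45; without the 3 libraries these were 14 of 18, 0.31 and 1.01.

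Metabolic lists stood close to all genes. Cholesterol synthesis and uptake was positive in 16 of 24 (median 0.08), with the sterol enzymes Nsdhl (0.20 ± 0.11) and Ebp (0.11 ± 0.08); without the 3 libraries the median was 0.02 and Nsdhl was at 0.07. Positive changes were found for fatty acid oxidation in 8 of 21 (median -0.02), with the mitochondrial thioesterase Acot2 (-0.20 ± 0.12) and the peroxisomal thiolase Acaa1b (-0.38 ± 0.24). Lipogenesis was positive in 7 of 18 (median -0.07, and -0.008 without the 3 libraries). In it Acly, which makes cytosolic acetyl-CoA, had 75.9, 74.3, 70.02, 74.1 and 74.4 CPM at 0.5%, against a lowest value of 63.3, a median of 64.4 and a highest of 67.4 CPM at 0%. The groups did not overlap, both were tight, and the change was small (0.18 ± 0.09, adjusted p = 0.690). Dgat2, which makes triglyceride, was at -0.38 ± 0.17. Adipose markers were positive in 3 of 11 (median -0.07), with leptin, Lep, at -1.05 ± 1.02 and Pck1, a gluconeogenic enzyme, at 0.19 ± 0.24.

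Clock genes were positive in 9 of 18 (median -0.01), with Per1, a core repressor (-0.50 ± 0.21), and Hlf, an output factor (-0.62 ± 0.29), at an unadjusted p under 0.05, and without the 3 libraries 8 of 18 were positive with a median of -0.12. Immediate early genes, which respond within minutes to stimuli and to handling, were positive in 5 of 19 (median -0.20). Klf4, also a factor of the surface epithelium, was at 0.30 ± 0.11, Ier3 at -0.37 ± 0.16 and Klf2 at -0.31 ± 0.13. Endothelial and blood markers were positive in 6 of 12 (median 0.00), with the receptors Kdr (0.15 ± 0.07) and Tek (0.20 ± 0.10). Of 11 pancreas genes 1 was tested, the elastase Cela1 (0.13 ± 0.11).

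Mitochondrially encoded transcripts, which can also follow RNA quality, were positive in 12 of 13, with a median of 0.27, and 6 had an unadjusted p under 0.05, all higher. They made up 25.7 to 31.8% of counts at 0.5% and 22.6 to 29.1% at 0%. The respiratory chain genes mt-Atp8 (6862 ± 1575 CPM at 0.5% and 5289 ± 1168 CPM at 0%, 0.38 ± 0.16) and mt-Cytb (0.27 ± 0.12) had the lowest p-values. Of the 13, those at an unadjusted p under 0.05 numbered 2 without the 3 libraries, 1 by library totals and 11 without animals numbered above 70. The part of this share in the other values was not tested.

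Several genes, chosen with earlier results of these data known, were compared between the lowest and the highest dose. Against 2.5%, the 0.5% diet had 0 called genes by edgeR and 691 at an unadjusted p under 0.05 (4.41%), and against 1.0% it had 0 called and 1103 (7.05%). Set against 0%, the 2.5% diet had 17 called genes (0.109%) and 1320 at an unadjusted p under 0.05 (8.43%), and the 1.0% diet had 0 called and 498 (3.18%). These comparisons and that of 0.5% with 0% share the 6 libraries at 0%, so their values are only set side by side. For Ahrr the log2 change was 0.59 at 0.5% and 1.01 at 2.5%, for Edn3 0.37 and 0.58, for the thyroid and kidney factor Pax8 0.28 and 0.72, and for Cyp1a1 0.66 and 2.27. Spp1, the secreted phosphoprotein osteopontin, was at -0.52 against 0% at the lowest dose and -1.75 at the highest; the direct difference of 0.5% from 2.5% was 1.24 ± 0.30 (unadjusted p = 0.00041, adjusted p = 0.415). Cyp2c23, an arachidonate epoxygenase, was at 0.02 and 1.14, with a direct difference of -1.12 ± 0.23 (adjusted p = 0.354). Kcne4 and Saa1 were farther from their 0% level at the lowest dose than at the highest. Their changes against 0% were -0.95 and 1.07 at 0.5%, and -0.35 and 0.34 at 2.5%, with direct differences of -0.59 ± 0.19 (adjusted p = 0.942) and 0.73 ± 0.35 (adjusted p = 0.9999).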

How the data were processed

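Libraries of cecum mRNA were made with a strand-marking ligation kit, per the labels' protocols. Values are unnormalized gene counts, as deposited. The build, mm10, is from the submitters' processing notes; aligner, counter, annotation and strand setting: not given in the sources used here. Of 25361 identifiers, 25268 were found in GENCODE release M21 (GRCm38). Groups follow the diet labels. Replicate numbers follow accession order and pair nothing, and no label names a cage, so libraries were taken as separate mice. A chi-square test of counts gave at least 17.1 per degree of freedom between libraries of a diet, so none repeated another. That test cannot tell preparations of 1 mouse from those of separate mice. Animals were numbered 18 to 26 at 0.5%, with 76 and 77 apart, and 8 to 17 at 0%, so that diet and numbering cannot be told apart.

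Genes were tested in R 4.3.3 with edgeR 4.0.16 (TMM, filterByExpr by diet, robust quasi-likelihood) on all 21 libraries, two-sided, with Benjamini-Hochberg adjustment over 15652 genes and a threshold of 0.05. The script was tested on simulated data. Values are CPM with TMM factors, mean ± SD, and log2 change ± SE. Named were genes called, the 12 lowest p in each direction with a mean of at least 1 CPM (1 predicted gene was passed over), the 2 lowest p of each of 39 lists, and 20 anchor genes; other list members are named to complete a small count, chosen after their values were seen. A few genes that this rule names are not reported here. Members and lists were chosen with earlier results of these data known. Alternatives were other scalings and filters, DESeq2 1.42.0, voom in limma 3.58.1, other sets of libraries, marker covariates and the omission of each library. Precision is limited by the libraries per group; depth affects genes near 1 CPM most.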

Additional observations from a re-analysis of the deposited data

Results flagged for a closer look

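Single libraries stood far from their group in 19 of 214 groups of values examined for the named genes and the small intestine marker level. The 95% critical value used to set a library apart is one that chance passes in about 1 in 20 groups. Of the 19, 13 came from replicate 5 at 0%, the library highest in small intestine markers, whose marker mean was 5.25 log2 CPM against 1.51 to 1.995 in the other 5.

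In that library Reg3g (67.9 CPM, others 0.0824 to 0.978), Reg3b (78.2 CPM, others 0 to 0.922), Lyz1 (78.4 CPM, others 1.59 to 2.78), Muc2 (3776 CPM, others 677.7 to 1290), Cyp1b1 (3.74 CPM, others 0.494 to 1.01), Il1b (8.73 CPM, others 0.826 to 2.10), Il33 (32.4 CPM, others 2.31 to 5.26) and Gata3 (3.13 CPM, others 0.934 to 1.43) were the highest of the 6. Maoa (310.2 CPM, others 428.0 to 476.8), Cyp2d26 (33.1 CPM, others 43.2 to 47.3), Cyp2c55 (1813 CPM, others 3106 to 3537) and Ces1g (89.5 CPM, others 146.6 to 178.6) were the lowest. Without it the log2 changes of Maoa, Cyp2d26 and Ces1g were 0.27, 0.28 and 0.25.

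Elsewhere at 0%, Cyp1a1 was high in replicate 2 (1.98 CPM, others 0.175 to 0.478) and Ahrr low in replicate 6 (1.19 CPM, others 2.21 to 2.69). At 0.5%, replicate 4 was high for Dchs1 (7.67 CPM, others 4.41 to 5.21) and Lyz1 (16.03 CPM, others 1.62 to 3.81), and replicate 2 was high for Tnf (6.47 CPM, others 0.341 to 1.73) and low for Asns (1.30 CPM, others 2.02 to 2.26).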

How the results depend on the processing

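The count of called genes, 1 with edgeR, stayed at 1 under the other scalings and filters and with small intestine markers as a covariate. It was 2 with DESeq2 and 0 with limma voom, without robust shrinkage, with only the 2 diets (also without animals above 70), without animals above 70, without the 3 or the 6 libraries high in small intestine markers, and with the mesenchyme covariate; at an unadjusted p under 0.05 these 8 gave 721 to 1310 genes. With 1 library left out it was 0 to 2. The settings without 6 libraries, with 2 diets and animals above 70 left out together, and with the mesenchyme covariate were chosen after seeing the data. Genes without overlap numbered 657 without the 3 libraries and 112 to 232 with 1 left out, where fewer libraries are compared. Under library totals 84 did not overlap, 12 higher and 72 lower, against 36 and 43.

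Arl4d stayed negative in all 36 alternatives and missed the threshold with limma voom (-0.71), without robust shrinkage (-0.72), with only the 2 diets (-0.73), without the 3 libraries (-0.68), without animals above 70 (-0.81), without the 6 libraries (-0.68), with the 2 diets without animals above 70 (-0.82) and with the mesenchyme covariate (-0.72), and lay between -0.79 and -0.63 with 1 library left out; several of these settings hold fewer samples, and for the others the cause was not tested.

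The other 104 named genes gave 3737 values, of which 2 passed the threshold, both Kcne4, and 51 had the opposite sign; none of those 51 passed, and the cause was not tested. By library totals the opposite values were Cyp1b1 -0.082, Tiparp -0.034 and Cyp2c23 -0.068. Without animals above 70 they were Hmox1 0.11, Gsta1 0.007, Cyp2c23 -0.14 and Ang4 -0.55, and with only the 2 diets as well 0.11, 0.004, -0.14 and -0.56. By limma voom they were Cyp2c23 -0.006, Reg3g 0.21 and Reg3b 0.68, with small intestine markers as a covariate Reg3g 0.11 and Reg3b 0.40, and with the mesenchyme covariate Tiparp -0.04, Cyp2c23 -0.055, Reg3g 3.27, Reg3b 4.07 and Lyz1 0.76. Without the 3 libraries they were Lyz1 0.05 and Gata3 0.033, and without the 6 Lyz1 0.047 and Gata3 0.032. With 1 library left out the ranges that crossed 0 were Cyp1b1 -0.22 to 0.78, Tiparp -0.017 to 0.11, Hmox1 -0.175 to 0.059, Gsta1 -0.32 to 0.046, Cyp2c55 -0.013 to 0.155, Cyp2c23 -0.12 to 0.16, Reg3g -2.66 to 3.34, Reg3b -2.48 to 3.84, Tnf -0.41 to 1.2, Lyz1 -2.58 to 1.37 and Ang4 -0.066 to 0.877. All 24 genes of lowest p kept their sign under the other tools, scalings and filters. Because they were picked by low p in the same libraries, this was largely fixed by the choice and is no separate support.

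By library totals 12 of 39 list medians changed sign, but relative to all genes only endothelium and blood did, and medians moved by at most 0.034; the other scalings changed none of them relative to all genes. Other settings moved the lists more. Relative to all genes, 9 of 39 medians changed sign with the mesenchyme covariate (largest shift 2.957, Paneth cells; P450s, junctions, proliferation and smooth muscle were among the 9), 6 with the small intestine covariate, 6 without the 3 libraries and 4 without animals above 70. No paired analysis was possible because replicate numbers follow accession order and tie no mouse of one diet to one of another.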
